A study of Mus musculus with 4 samples.

Results

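The forkhead, T-box and GATA factors examined here are the protein-coding genes of the count table whose names fit the patterns of the 3 families (Fox with a letter and a number, Tbx with a number, and Gata1 to Gata6). The rule gave 55 of the 29224 genes listed: 41 forkhead genes, 11 T-box genes and 3 GATA genes. A further 9 mouse genes whose names fit the patterns, among them Gata1, Gata4, Gata5 and Tbx5, are not analysed here.

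RNA was sequenced from astrocytes of the cerebral cortex of mice at postnatal day 5. The cells were collected with magnetic beads that carry the ACSA-1 antibody, which binds the glutamate transporter GLAST of astrocytes. The groups held 2 libraries from Ezh2 f/f mice, which carry floxed Ezh2 alleles, and 2 from Ezh2 cKO mice, in which the same floxed alleles are combined with a Cre recombinase driven by the astrocyte gene Aldh1l1. Each library is named here by its group and replicate number, and where 4 counts stand together they are in the order Ezh2 f/f 1 and 2, Ezh2 cKO 1 and 2. Nothing in the sources used here says whether a library came from 1 animal or several, or whether the libraries came from separate litters, so p-values measure only the spread between these libraries, which may be technical.

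Forkhead factors bind DNA through a winged-helix domain and are named by class with a letter, so that Foxo genes respond to insulin and AKT signalling, Foxp genes act mostly as repressors, Foxm1 drives mitotic genes and Foxj1 drives the genes of motile cilia. T-box factors pattern limbs, heart and neural tissue, and GATA factors are zinc-finger proteins known from blood, endothelium and inhibitory neurons of the midbrain and thalamus. Ezh2 encodes the methyltransferase of Polycomb repressive complex 2, which places the repressive mark H3K27me3, typically at promoters rich in CG dinucleotides, and many of these developmental factors are known to carry that mark in cells that do not use them.

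Total counts were between 16273308 and 17522152 per library, and a count of 3, taken here as the floor of detection, corresponds to between 0.170 and 0.191 CPM (counts scaled to the library size by the TMM method). Such a floor covers counting error only. Ezh2 itself was read 434 and 327 times in Ezh2 f/f against 211 and 164 times in Ezh2 cKO, with a log2 fold change of -1.11 (SE 0.16, adjusted p = 3.26e-05), and these whole-gene counts also read exons outside the deleted part. Of 10 astrocyte markers, 9 were higher in Ezh2 cKO and 0 lower by edgeR (0 lower also unadjusted and by DESeq2), and their summed level was 611 and 666 CPM in Ezh2 f/f against 3327 and 3042 CPM in Ezh2 cKO. Neuronal RNA was also read in every library. Of 10 pan-neuron markers 9 were higher and 1 lower by edgeR. The summed pan-neuron level was 5924 and 6229 CPM in Ezh2 f/f against 7014 and 7044 CPM in Ezh2 cKO. Of all genes tested 34.7% were higher and 33.6% lower. The median log2 fold changes of 18 marker lists of brain, vascular and blood cells ran from -1.96 (midbrain and thalamic inhibitory neurons) to 2.93 (oligodendrocytes), against 0.02 over all genes tested. In bulk RNA fewer cells of a type and less RNA per cell cannot be told apart, and the part of these marker differences in the results below was not tested unless a value is given. Within Ezh2 f/f, replicate 2 held more counts of several genes of the midbrain, thalamus and choroid plexus than replicate 1, among them Otx2 (71 against 10), Lhx5 (132 against 68) and Ttr (11598 against 6326).

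A promoter window was at hand for 34 of the 55 members, taken from RefSeq (GRCm38.p6) as 250 bases before to 50 bases after the start of the gene. The windows printed here are those of 4 members that fell by more than 2-fold in Ezh2 cKO, followed by that of Foxi1, a member that was hardly counted in any library, so that their content of CG dinucleotides can be compared. All are written 5′ to 3′ along the gene, with each CG pair in capitals.
Gata2, chr6:88193641-88193940, plus strand: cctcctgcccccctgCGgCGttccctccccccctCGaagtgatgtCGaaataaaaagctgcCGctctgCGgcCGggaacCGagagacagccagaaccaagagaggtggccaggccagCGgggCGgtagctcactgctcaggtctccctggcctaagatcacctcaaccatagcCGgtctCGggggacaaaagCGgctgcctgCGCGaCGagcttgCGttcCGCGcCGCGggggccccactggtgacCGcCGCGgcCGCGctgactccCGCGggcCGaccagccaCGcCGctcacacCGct
Foxp4, chr17:47924583-47924882, minus strand: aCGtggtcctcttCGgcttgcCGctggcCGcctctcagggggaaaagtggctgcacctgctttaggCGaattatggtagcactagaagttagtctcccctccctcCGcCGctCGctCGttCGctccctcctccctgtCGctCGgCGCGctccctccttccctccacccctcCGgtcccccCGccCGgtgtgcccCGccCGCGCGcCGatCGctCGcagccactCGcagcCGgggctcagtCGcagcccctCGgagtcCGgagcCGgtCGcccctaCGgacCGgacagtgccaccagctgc
Foxa3, chr7:19023490-19023789, minus strand: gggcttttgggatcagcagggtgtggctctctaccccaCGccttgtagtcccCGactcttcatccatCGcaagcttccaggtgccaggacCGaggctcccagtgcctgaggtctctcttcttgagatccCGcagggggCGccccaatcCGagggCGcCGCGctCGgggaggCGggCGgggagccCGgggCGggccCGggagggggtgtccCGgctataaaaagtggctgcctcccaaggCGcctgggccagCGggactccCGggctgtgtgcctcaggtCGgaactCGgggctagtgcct
Tbx21, chr11:97115282-97115581, minus strand: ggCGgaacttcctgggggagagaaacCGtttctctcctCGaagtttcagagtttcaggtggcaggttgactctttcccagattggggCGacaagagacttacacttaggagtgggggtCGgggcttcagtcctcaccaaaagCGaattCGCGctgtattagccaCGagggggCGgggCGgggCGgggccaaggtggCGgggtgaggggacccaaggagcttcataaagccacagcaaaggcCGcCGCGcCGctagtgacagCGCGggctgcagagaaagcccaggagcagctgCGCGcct
Foxi1, chr11:34208040-34208339, minus strand: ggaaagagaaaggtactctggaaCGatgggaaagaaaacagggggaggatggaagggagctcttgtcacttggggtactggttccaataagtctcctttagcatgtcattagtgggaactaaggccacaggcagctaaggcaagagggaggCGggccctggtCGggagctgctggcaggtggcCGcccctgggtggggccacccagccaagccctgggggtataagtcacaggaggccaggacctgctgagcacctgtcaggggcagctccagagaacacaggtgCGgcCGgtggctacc
The Gata2, Foxp4, Foxa3 and Tbx21 windows held 32, 33, 22 and 21 CG pairs in 300 bases, and the Foxi1 window 6. These windows are examples only. Members that did not fall also held many CG pairs, among them Foxk2 (59), Foxo3 (35) and Tbx1 (26). So did Foxa1 (26), which was hardly counted. A second RefSeq start of Gata2, also on chromosome 6, had 29 CG pairs in its window.

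CG-rich windows were common among the members that could be tested. An observed over expected CG ratio above 0.6 was found in 17 of the 22 tested members with a window (77.3%), against 67.6% of 12164 windows of tested genes, and in 3 of 12 untested members with a window (25%). Among the members called lower it was found in 9 of 11 (81.8%), and among tested members not called in 7 of 10 (70%). It was found in 75.8% of all genes called lower and 60.3% of all genes called higher. The windows of Foxp1 (13 CG pairs) and Foxn3 (6 CG pairs) were the 2 of the 11 lower members at or under the ratio. A forkhead motif (TGTTTAC, either strand) stood in the window of Foxa1 and in no other member's (2.94%). It stood in 3.55% of all 27025 windows and in 2.43% of those of tested genes. A T-box motif (AGGTGTGA, either strand) stood in none of the members' windows, in 1.27% of all windows and in 0.806% of those of tested genes. A GATA motif (AGATAA, either strand) stood in the windows of Tbx19 and Tbx22 (5.88% of members). It stood in 11.4% of all windows and in 6.3% of those of tested genes. None of the motifs contains another, and a match is a description of the window only.

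The comparison of Ezh2 cKO with Ezh2 f/f asks how RNA levels in the collected cells differ when Ezh2 is deleted in astrocytes. The libraries also held neuronal RNA, so a change of a member is not assigned to astrocytes. More members fell than rose. Of the 55 members, 37 had enough counts to be tested, and by edgeR's quasi-likelihood test, with p-values adjusted over all 16793 genes, 19 were lower in Ezh2 cKO (51.4%) and 1, Tbx1, was higher. The background was 33.6% of all genes tested for lower and 34.7% for higher. The 19 lower members were 16 forkhead genes, the T-box genes Tbx2 and Tbx21, and Gata2. By DESeq2 16 were lower and 0 higher. With a change of at least 2-fold added to the rule, 9 members were lower (24.3%) and 0 higher, against a background of 14.0% and 19.0%. Among the 9 were Foxp4, Foxo6, Foxm1, Foxa3, Foxn4, Tbx2, Tbx21 and Gata2. Foxa3, Foxn4 and Tbx21, counted in the 19 and in the 9, passed the filter on low counts only through the Ezh2 f/f libraries. Their direction was therefore largely set by the filter, and the shares of lower members include them. At an unadjusted p under 0.05, 2 members were higher and 21 lower, with Foxa3, Foxn4 and Tbx21 again among the lower. No share over all genes is given at that threshold, so these counts are a description only.

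The median log2 fold change of the 37 tested members was -0.45, also with Foxa3 set to its bound, against 0.02 for all genes tested. The Ezh2 cKO libraries lay below both Ezh2 f/f libraries for 23 of the 37 and above both for 7, where the background was 41.5% and 42.8% of genes. The 22 tested members with a mean FPKM (counts per length and library size, as deposited) of at least 1 included 15 of the lower calls, or 68.2%, where 38.6% of all tested genes at that level were lower. Of the 15 tested members below that level 4 were lower (26.7%), where the value over all genes was 17.8%. These were Foxl2, Foxa3, Foxn4 and Tbx21. The direction of Foxa3, Foxn4 and Tbx21 was largely set by the filter, so no conclusion is drawn from this share. Foxa3, Foxn4, Foxp3 and Tbx21 passed the filter on low counts through the Ezh2 f/f libraries only, so that they could be tested only because they were high there.

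**Figure D1:**
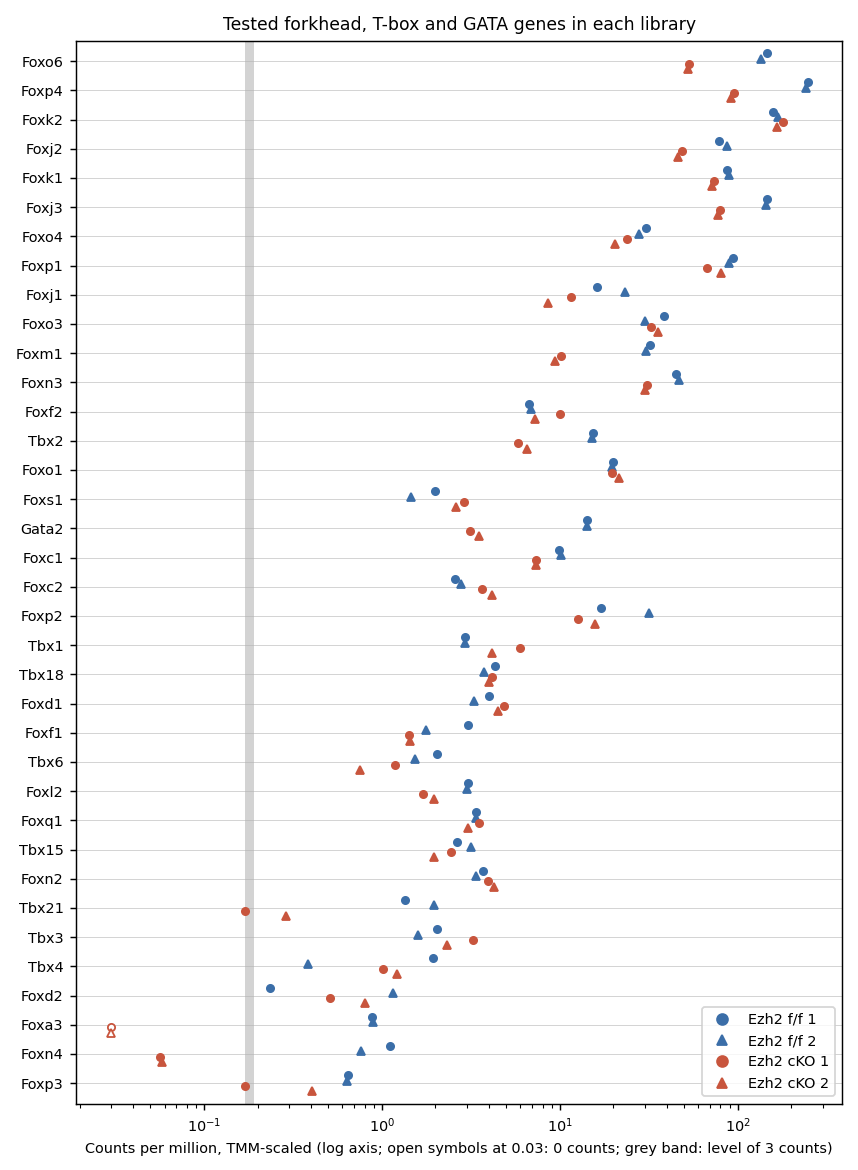
CPM of tested members (rows, ordered by mean FPKM) in the 4 libraries, on a log axis, with 2 Ezh2 f/f libraries in blue and 2 Ezh2 cKO libraries in red. The blue points of Foxo6, Foxp4, Foxm1, Tbx2 and Gata2 stand clear to the right of the red ones, and the points of Foxo1, Foxo3 and Foxk2 lie together.

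**Figure D2:**
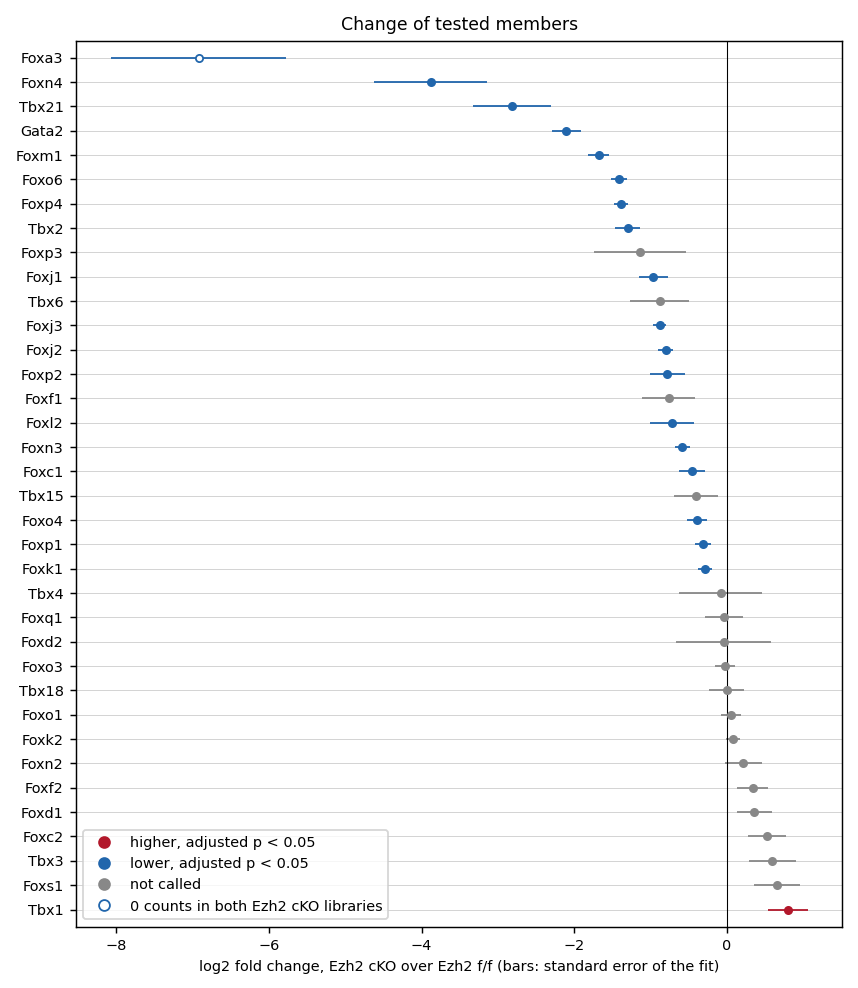
Log2 fold change of tested members, Ezh2 cKO over Ezh2 f/f, with the standard error of the fit as a bar and colour for the call at an adjusted p under 0.05. Most called members lie below 0, and Tbx1 at 0.80 is called higher. Foxa3 is drawn open because both Ezh2 cKO libraries had 0 counts, so its fitted value is not a size of change.

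Foxo6 and Foxp4, which were among the members with the highest FPKM in Ezh2 f/f, both fell. Per length, Foxo6 averaged 52.4 FPKM in Ezh2 f/f against 20.8 FPKM in Ezh2 cKO, and Foxp4 48.0 and 19.5. By the same measure Foxk2 lay below both in Ezh2 f/f and above both in Ezh2 cKO, where it averaged 33.7 FPKM, so their order changed. Members with a mean FPKM of at least 10 numbered 7 in Ezh2 f/f against 4 in Ezh2 cKO.

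The Foxp genes encode repressors that pair with one another and are expressed in cortical neurons and progenitors. Foxp4, on chromosome 17, had 4213 and 3782 counts in Ezh2 f/f against 1682 and 1579 in Ezh2 cKO. The groups did not overlap, and the fall was 2.61-fold (log2 fold change -1.39, SE 0.09, adjusted p = 1.08e-08), the smallest p of any member. Foxp1, a factor of upper-layer and striatal neurons, had 1609, 1413, 1192 and 1404 counts (log2 fold change -0.31, adjusted p = 0.0182). The nearest libraries of the 2 groups were 89.9 and 81.0 CPM, and without Ezh2 cKO replicate 1 the change was -0.18 with an adjusted p of 0.19. Foxp2, known for its part in vocal learning and in deep-layer and striatal neurons, had 292 and 501 counts in Ezh2 f/f against 224 and 273 in Ezh2 cKO (log2 fold change -0.78, adjusted p = 0.00716). Its Ezh2 f/f libraries differed more from each other than the groups did at their nearest, and the change was -0.27 (adjusted p = 0.17) without Ezh2 f/f replicate 2. DESeq2 gave Foxp2 an adjusted p of 0.129.

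Foxp3, the factor of regulatory T cells, had 11, 10, 3 and 7 counts and was not called (log2 fold change -1.14, adjusted p = 0.104). Its span overlaps Ppp1r3f on the other strand and Flicr on its own, and the use of strand in counting is not stated. Per length, Foxp4 made up 86.4% and 85.2% of the FPKM of Foxp1, Foxp2 and Foxp4 in Ezh2 f/f against 77.3% and 73.0% in Ezh2 cKO. Their summed FPKM was 56.5 and 55.4 in Ezh2 f/f against 25.5 and 26.3 in Ezh2 cKO.

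The Foxo genes encode factors that act downstream of insulin and AKT signalling, and the paralogues moved unequally. Foxo6, the brain member of the class, had 2502 and 2135 counts in Ezh2 f/f against 939 and 915 in Ezh2 cKO, a fall of 2.66-fold (log2 fold change -1.41, SE 0.10, adjusted p = 1.68e-08). Foxo4 had 519, 436, 420 and 356 counts, with a log2 fold change of -0.39 (adjusted p = 0.0135), and the call was lost without Ezh2 f/f replicate 1 (adjusted p = 0.0564) and without Ezh2 cKO replicate 2 (adjusted p = 0.148). Foxo1 had 340, 308, 348 and 374 counts and a log2 fold change of 0.06 (95% interval from -0.19 to 0.32). Foxo3 had 660, 476, 574 and 618 counts and a log2 fold change of -0.02 (95% interval from -0.26 to 0.23). The libraries of Foxo1 and Foxo3 overlapped between the groups. Foxo6 held 77.7% and 78.5% of the FPKM of the 4 genes in Ezh2 f/f against 60.3% and 60.7% in Ezh2 cKO, and their summed FPKM went from 70.3 and 63.9 to 34.4 and 34.6.

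**Figure D3:**
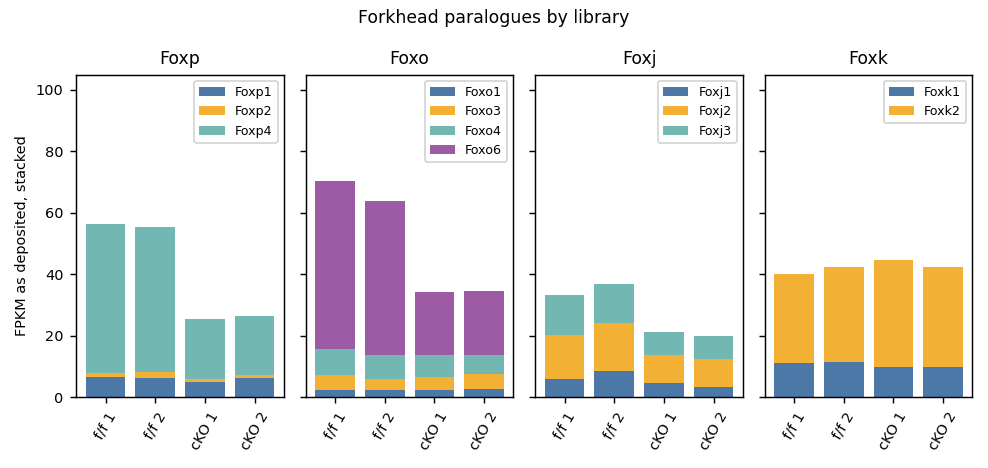
Deposited FPKM of the Foxp, Foxo, Foxj and Foxk genes in each library, stacked by gene (y axis, FPKM; 1 bar per library). The Foxo and Foxp bars are lower in the Ezh2 cKO libraries (34.4 and 34.6 for Foxo, 25.5 and 26.3 for Foxp) mainly through Foxo6 and Foxp4, and the Foxk bars lie between 40.2 and 44.6 in all 4 libraries.

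Genes around the Foxo factors moved in both directions, as did all genes tested, of which 34.7% were higher and 33.6% lower. Of 13 genes from the insulin receptor to AKT, 3 were higher and 4 lower, with a median log2 fold change of -0.17. Akt1, the most counted of the AKT genes in Ezh2 f/f, had 12003 and 10694 counts there and 5843 and 5386 in Ezh2 cKO (log2 fold change -1.11). Insr, Igf1r and Irs1 were also lower, and Pik3r1, a regulatory subunit of phosphoinositide 3-kinase, was among the higher ones (0.37). Of 14 genes known as FOXO targets, 5 were higher and 6 lower, with a median of -0.07. Cat (catalase, 1.42) and Sod2 (0.68), enzymes that remove reactive oxygen species, were among the higher ones, and Cited2 (-1.14), Fbxo32 (-0.98) and Bcl2l11 (-0.86), a promoter of apoptosis, were among the lower ones.

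Foxm1, the forkhead factor of G2 and M phase, had 548 and 477 counts in Ezh2 f/f against 179 and 162 in Ezh2 cKO. The groups stood far apart, with 31.2 CPM ± 1.22 (SD, n = 2) against 9.75 CPM ± 0.567 (SD, n = 2), a fall of 3.20-fold (log2 fold change -1.68, SE 0.14, adjusted p = 9.64e-08). Of 14 mitotic genes linked to FOXM1, 11 were lower and 0 higher by edgeR, with a median of -1.15. By the same adjusted test 33.6% of all genes tested were lower and 34.7% higher. Before adjustment 12 passed a p of 0.05 as lower and 0 as higher, and DESeq2 also called 0 higher. No share over all genes is given for the unadjusted counts. Kif20a (-1.94), a mitotic kinesin, Cdc20 (-1.69), an activator of the anaphase-promoting complex, Aurka (-1.65) and Bub1b (-1.44), kinases of the spindle and its checkpoint, were among the lower ones. Ccnb1 was also lower at -1.32. Bub1 (log2 fold change 0.08), Ccnb2 (-0.14) and Birc5 (-0.45) were not called. The summed level of the 14 genes was 182 and 183 CPM in Ezh2 f/f against 94.0 and 87.1 CPM in Ezh2 cKO.

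Foxj1, the master regulator of motile cilia in ependymal and choroid plexus cells, had 276 and 363 counts in Ezh2 f/f against 204 and 149 in Ezh2 cKO. The groups did not overlap, with 16.2 and 23.1 CPM against 11.6 and 8.60 CPM, and the fall was 1.94-fold (log2 fold change -0.96, SE 0.19, adjusted p = 5.49e-04). The genes of motile cilia did not follow in 1 direction. Of 18 tested, 7 were higher and 5 lower, against 34.7% and 33.6% of all genes tested, with a median of 0.56. Dnah5 (2.26), an outer-arm dynein, Cfap52 (2.05) and Dnai1 (1.44) were higher, and Tekt1 (-2.86), a tektin of the axoneme, and Ak7 (-1.23) were lower. Of 7 tested ependymal markers 4 were higher and 1 lower, and the summed level was 6.15 and 14.6 CPM in Ezh2 f/f against 18.6 and 13.6 CPM in Ezh2 cKO. Of 7 tested choroid plexus markers 4 were lower and 2 higher, and Ttr, the transthyretin of choroid plexus, had 6326 and 11598 counts in Ezh2 f/f against 5 and 12 in Ezh2 cKO. The part of choroid plexus RNA in the Foxj1 value was not tested.

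The relatives Foxj2 and Foxj3 are broadly expressed factors. Foxj3 had 2501 and 2262 counts in Ezh2 f/f against 1402 and 1348 in Ezh2 cKO, a 1.85-fold fall (log2 fold change -0.88, SE 0.09, adjusted p = 9.94e-07), and it shares 2526 bases with Frg2f1 on the other strand, which had between 206 and 221 counts in every library. Foxj2 had 1343, 1370, 859 and 804 counts, a 1.74-fold fall (log2 fold change -0.80, SE 0.10, adjusted p = 5.07e-06). Both stayed under the 2-fold rule.

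Foxk1 and Foxk2, are regulators of metabolism and autophagy. Foxk2 had 2680 and 2646 counts in Ezh2 f/f against 3162 and 2870 in Ezh2 cKO (log2 fold change 0.08, 95% interval from -0.09 to 0.26), with overlapping CPM. Foxk1 had 1477, 1400, 1298 and 1236 counts and a log2 fold change of -0.28 (adjusted p = 0.0172), and this call was lost without Ezh2 f/f replicate 2, without either Ezh2 cKO library and with library totals as the only scaling (adjusted p between 0.0504 and 0.093). Foxn3, a checkpoint-linked repressor, had 765, 736, 549 and 523 counts and fell 1.49-fold (log2 fold change -0.58, SE 0.10, adjusted p = 1.67e-04). Its relative Foxn2 had 63, 53, 70 and 74 counts and was not called (0.22, adjusted p = 0.422).

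A pair of forkhead genes went from low counts to the floor of detection. Both passed the filter on low counts through the Ezh2 f/f libraries only, so their direction was largely set by the filter. Foxa3, a factor of endoderm and liver, had 15 and 14 counts in Ezh2 f/f against 0 in both Ezh2 cKO libraries, so that it was at least 5.15-fold lower against a floor of 3 counts per library (adjusted p = 1.35e-04). Its relatives Foxa1 and Foxa2 were at or near 0, with 4 counts of Foxa1 and 1 of Foxa2 in Ezh2 f/f replicate 2 and none elsewhere. Foxn4, which selects neuronal subtypes in retina and spinal cord, had 19 and 12 counts in Ezh2 f/f against 1 in each Ezh2 cKO library. The summed counts of 31 and 2 gave a ratio of 16.5 (95% counting interval from 4.20 to 142, exact binomial, adjusted for library size), and the adjusted p was 3.35e-04.

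The remaining tested forkhead genes had low counts. Foxc1, a factor of meninges and pericytes, had 170, 158, 129 and 127 counts (log2 fold change -0.45, adjusted p = 0.0312), and Foxl2, an ovarian factor, had 52, 47, 30 and 34 counts (-0.72, adjusted p = 0.0385). The groups did not overlap for either gene, but leaving out any 1 of the 4 libraries took the adjusted p above the threshold for both genes, to between 0.0684 and 0.107 for Foxc1 and between 0.0632 and 0.166 for Foxl2. Foxl2 also shares 12 bases with Foxl2os on the other strand. Foxc2, the close relative of Foxc1 in mesenchyme, had 44, 44, 64 and 72 counts (0.53, adjusted p = 0.0767), and Foxs1, a gene of pericytes, had 34, 23, 51 and 45 counts (0.66, adjusted p = 0.0678). Foxf2, also known from brain pericytes, had 115, 108, 176 and 126 counts (0.34, adjusted p = 0.141), and Foxd1 had 68, 52, 86 and 78 (0.36, adjusted p = 0.187). The Ezh2 cKO libraries lay above the Ezh2 f/f libraries for all 4 of these genes, and none was called. Foxc2 and Foxs1 were called higher with library totals as the only scaling (adjusted p = 0.0451 and 0.0438) and with limma on FPKM. Of 9 tested mural cell markers 4 were higher and 1 lower, with summed levels of 243 and 263 CPM in Ezh2 f/f against 404 and 355 CPM in Ezh2 cKO, and of 10 meningeal fibroblast markers 2 were higher and 6 lower. The background was 34.7% of all genes tested for higher and 33.6% for lower. Without Ezh2 f/f replicate 1, Foxs1 was also called higher (0.91, adjusted p = 0.0356). Foxf1 had 52, 28, 25 and 25 counts (-0.76, adjusted p = 0.0655), and its change was -1.09 (adjusted p = 0.00757) without Ezh2 f/f replicate 2 and -0.31 (adjusted p = 0.545) without replicate 1. Foxq1 had 58, 53, 62 and 53 counts (-0.04). Foxd2 had 4, 18, 9 and 14 counts (-0.04, SE 0.62), with a change of -0.78 without Ezh2 f/f replicate 1 and 1.46 without replicate 2, neither of them called.

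Of the 8 tested T-box genes 2 fell, 1 rose and 5 were not called, against 33.6% lower and 34.7% higher over all genes tested. Tbx2, a repressor known from heart, eye and limb, had 262 and 239 counts in Ezh2 f/f against 103 and 113 in Ezh2 cKO. The groups stood at 15.3 CPM ± 0.0918 (SD, n = 2) and 6.18 CPM ± 0.481 (SD, n = 2), which is a 2.47-fold fall (log2 fold change -1.30, SE 0.17, adjusted p = 8.59e-06). Tbx21, which encodes T-bet and is known from type 1 helper T cells and from mitral and tufted neurons of the olfactory bulb, had 23 and 31 counts in Ezh2 f/f against 3 and 5 in Ezh2 cKO. The fall was 7.03-fold (log2 fold change -2.81, SE 0.51, adjusted p = 2.41e-04). Tbx21 passed the filter on low counts through the Ezh2 f/f libraries only, so its direction was largely set by the filter. Of the 6 lymphocyte markers listed, 2 were tested. The summed level of all 6 was 3.22 and 2.23 CPM in Ezh2 f/f against 8.17 and 8.14 CPM in Ezh2 cKO. Cd4, which microglia and macrophages can also express, was higher (14, 12, 123 and 120 counts, log2 fold change 3.12, adjusted p = 2.76e-07), and the B cell gene Cd79a was not called (38, 21, 20 and 19 counts, adjusted p = 0.126). The T cell genes Cd3d, Cd3e and Cd3g had between 0 and 2 counts in any library and the B cell gene Ms4a1 0 or 1, and the part of these cells in the Tbx21 difference was not tested.

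Tbx1, a factor of the pharyngeal arches and the brain vasculature, was the only member called higher. It had 50 and 46 counts in Ezh2 f/f against 106 and 72 in Ezh2 cKO, a 1.74-fold rise (log2 fold change 0.80, SE 0.26, adjusted p = 0.0138). Ezh2 cKO replicate 1 lay above replicate 2, at 6.01 against 4.16 CPM, and without it the change was 0.50 with an adjusted p of 0.19. DESeq2 gave it an adjusted p of 0.0711. Of 10 endothelial markers 3 were higher and 1 lower, with a summed level between 239 and 279 CPM in the 4 libraries. The background was 34.7% of all genes tested for higher and 33.6% for lower. Tbx3, the close relative of Tbx2, had 35, 25, 57 and 40 counts (0.60, adjusted p = 0.102), and it shares 697 bases with Tbx3os1 on the other strand. Tbx18, a gene of pericytes, had 74, 59, 73 and 69 counts and a log2 fold change of 0.00 (95% interval from -0.45 to 0.46). Tbx6 had 35, 24, 21 and 13 counts (-0.88, adjusted p = 0.0575), with a change of -1.07 (adjusted p = 0.0258) without Ezh2 f/f replicate 2 and -0.59 (adjusted p = 0.3) without Ezh2 cKO replicate 2. Tbx15 had 45, 50, 43 and 34 counts (-0.40, adjusted p = 0.234). Tbx4 had 33 and 6 counts in Ezh2 f/f against 18 and 21 in Ezh2 cKO, so that its groups overlapped and its change of -0.08 rested on unlike libraries. Without Ezh2 f/f replicate 1 the change was 1.54 (adjusted p = 0.0331), and without replicate 2 it was -0.79 (adjusted p = 0.102).

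Eomes, Tbr1 and Mga, T-box genes outside the naming pattern, were lower, and Tbxt is not analysed here. Eomes (Tbr2), the marker of intermediate progenitors and also of mitral and tufted neurons, had 160 and 251 counts in Ezh2 f/f against 13 and 27 in Ezh2 cKO (log2 fold change -3.46, SE 0.33, adjusted p = 5.49e-07). Tbr1, a factor of deep-layer cortical neurons, had 2020, 1649, 1437 and 1429 counts (-0.45, adjusted p = 9.72e-04), and Mga had 527, 435, 295 and 357 (-0.65, adjusted p = 7.45e-04). Of 6 tested intermediate progenitor markers, Eomes included, 3 were lower and 1 higher, and of 8 deep-layer neuron markers 4 were lower and 2 higher. The background was 33.6% of all genes tested for lower and 34.7% for higher.

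Gata2, on chromosome 6, was the only GATA gene with counts enough for a test. Gata2 works in blood progenitors, endothelium and mast cells, and selects the inhibitory fate in midbrain neurons. It had 245 and 223 counts in Ezh2 f/f against 55 and 61 in Ezh2 cKO. The libraries within a group were close, at 14.3 CPM ± 0.108 (SD, n = 2) and 3.32 CPM ± 0.284 (SD, n = 2), and the fall was 4.29-fold (log2 fold change -2.10, SE 0.19, adjusted p = 2.36e-07). Gata3, its partner in the same neurons and a factor of type 2 helper T cells, had 1 and 39 counts in Ezh2 f/f against 2 and 0 in Ezh2 cKO, so that its signal came from Ezh2 f/f replicate 2 alone and the filter left it out of the test. Gata6, a factor of endoderm and heart, had 1, 2, 2 and 2 counts.

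Of 9 tested partners and cofactors of the GATA factors, 4 were lower and 1 higher, with a median log2 fold change of -0.60. Over all genes tested 33.6% were lower and 34.7% higher. Ldb1, the bridging protein of GATA and LIM complexes, had 10297 and 8920 counts in Ezh2 f/f against 2703 and 2384 in Ezh2 cKO (log2 fold change -2.01, SE 0.09, adjusted p = 4.91e-10). Lmo1 (-1.08), Zfpm1 (-0.91), the cofactor FOG1, and Tal2 (-1.83) were also lower, and Lyl1 was higher (1.06). Tal1, which works with Gata2 in blood and in midbrain neurons, had 42 and 122 counts in Ezh2 f/f against 68 and 49 in Ezh2 cKO and was not called (-0.60, adjusted p = 0.193). Of the 10 markers of midbrain and thalamic inhibitory neurons, which include Gata2 and Gata3, 5 of 6 tested were lower by edgeR, and 0 were higher, also at an unadjusted p under 0.05 and by DESeq2. Their summed level was 32.5 and 54.5 CPM in Ezh2 f/f against 11.2 and 12.3 CPM in Ezh2 cKO. Sox14 had 10 counts and Pax3 13 counts in Ezh2 f/f replicate 2, where replicate 1 had 0 and 1. The log2 fold change of Gata2 was -2.11 without that library. Of 7 tested erythrocyte markers 4 were higher and 0 lower by edgeR (0 lower also unadjusted and by DESeq2), and their summed level was 533 and 600.0 CPM in Ezh2 f/f against 1043 and 1018 CPM in Ezh2 cKO.

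**Figure D4:**
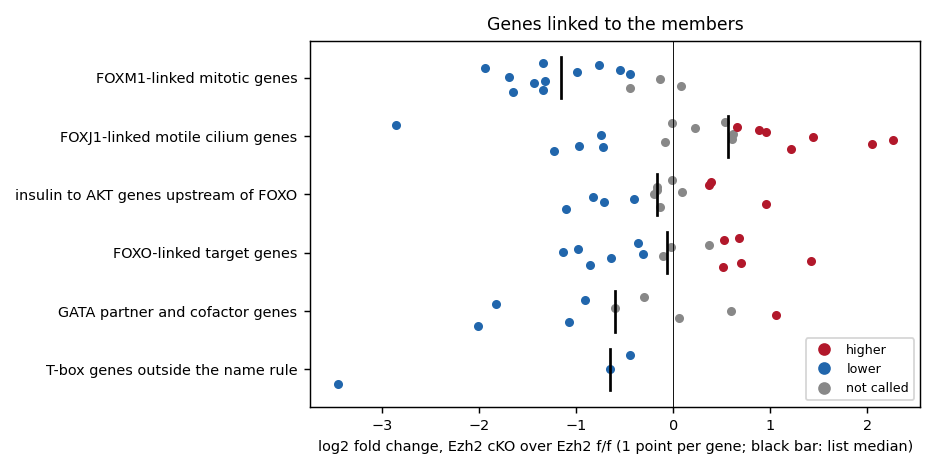
Log2 fold changes of tested genes linked to the members (x axis, Ezh2 cKO over Ezh2 f/f; 1 point per gene, coloured by call; black bars are list medians). The mitotic genes lie mostly below 0 with a median of -1.15, and the motile cilium, insulin to AKT and FOXO target genes lie on both sides of 0.

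Most of the 18 members left untested were at or near the floor, with Gata3, Foxr2 and Foxb1 as exceptions. With a floor of 3 counts, 44 of the 55 members were above it in at least 1 library, 34 in all 4 libraries, and 11 in none. Per library, 39 and 42 members were above the floor in Ezh2 f/f against 35 and 37 in Ezh2 cKO. Over all 29224 genes listed, 18560 and 18373 were above the floor in the Ezh2 f/f libraries against 18867 and 18839. Above it in Ezh2 f/f but in neither Ezh2 cKO library were 6 members, Foxa1, Foxa3, Foxb1, Foxl3, Foxn4 and Gata3, and of these Foxa3 and Foxn4 were above it in both Ezh2 f/f libraries. The reverse held for 1 member, Foxi1, with 5 counts in Ezh2 cKO replicate 2 and 0 in the other libraries. These are 10.9% and 1.82% of the members, against 4.82% and 5.87% of all genes listed, and the difference was not tested.

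Among the untested genes Foxr2 was above the floor in every library (5, 13, 9 and 8 counts). Foxb1, a factor of diencephalon and mammillary body, had 1 and 10 counts in Ezh2 f/f against 0 and 1 in Ezh2 cKO. Foxl3 had 1, 5, 1 and 1 counts and Foxl1 had 4, 3, 4 and 3. The other untested members, Foxa2, Foxb2, Foxd3, Foxe1, Foxh1, Foxi2, Foxn1, Gata6, Tbx10, Tbx19 and Tbx22, had at most 3 counts in any library, where a difference was not detectable at this depth.

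**Figure D5:**
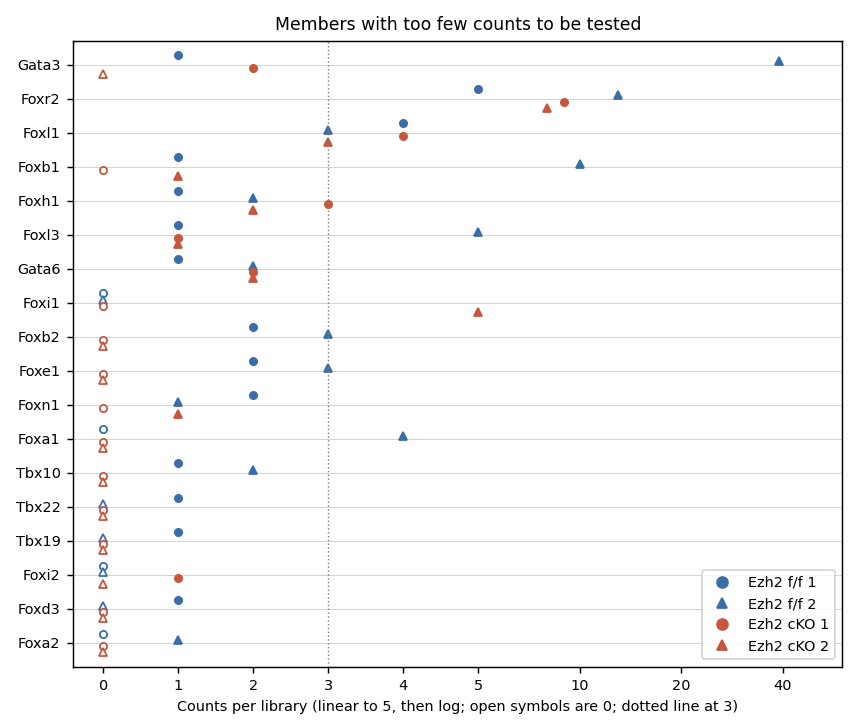
Counts of the 18 untested members in each library (x axis, linear to 5 and then log; dotted line at the floor of 3 counts). Most points lie at or left of the floor, and Gata3 stands out with 39 counts in Ezh2 f/f replicate 2 against 0 to 2 in the other libraries.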

How the data were processed

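The authors deposited, for 29224 genes in 4 libraries, whole-number read counts without normalization and, in a second table, FPKM values, which divide the counts by gene length and library size. The submitters' processing notes name Bowtie2 2.2.3, TopHat2 2.0.12, HTSeq 0.6.0 and the build mm9, without their roles, and the use of strand is not given in the sources used here. The deposited coordinates equal those of GRCm38 for 2 of the 55 members, so only chromosomes are given for genes. The authors' own comparison columns (mean, ratio, log2 ratio and p-values) were not used. Every sample column was used (0 left out).

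Groups follow the labels, 2 libraries each for Ezh2 f/f and Ezh2 cKO. The main test was edgeR 4.0.16 in R 4.3.3: filterByExpr (minimum count 10; 16793 genes), TMM scaling, and the quasi-likelihood test with the group as the only term, adjusted by Benjamini-Hochberg over all genes tested and called under 0.05 (common biological coefficient of variation 0.0953). The SE is the log2 fold change over the root of the F statistic, and 95% intervals use it with normal quantiles. Alternatives were DESeq2 1.42.0, its size factors, library totals only, no filter, at least 50 counts on average, limma 3.58.1 on log2(FPKM + 1) or log2(FPKM + 0.1) with an FPKM of at least 1 in 2 libraries, log2(FPKM + 1) unfiltered, a replicate block, each library left out, a 2-fold rule and a floor of 10 counts. Each test was tried on simulated counts, where limma on FPKM, with its own filter, made more false calls than the count tests. With 2 against 2 libraries the smallest permutation p is 0.333, so p-values come from fits across all genes. Tables were made with Python 3.11.15, numpy 2.4.6, pandas 2.3.3 and scipy 1.17.1.

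Members called with at least 2-fold change and libraries that do not overlap have full values, other tested members their change, and untested members their counts. The members and the 6 linked and 18 marker lists were chosen with earlier results of these data known. Some genes that stay in the counts are not reported here by name.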

Additional observations from a re-analysis of the deposited data

How the results depend on the processing

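Of the 19 members called lower, 12 stayed below 0 and were called under every one of the 13 alternative fits that gave them a value, 7 (Foxc1, Foxj1, Foxk1, Foxl2, Foxo4, Foxp1 and Foxp2) were not called under at least 1, and 0 turned direction. The 12 include Foxa3, Foxn4 and Tbx21, which had a value in only 10 fits each. Their direction was largely set by the filter on low counts, so their calls under these fits are no added support. With log2(FPKM + 1) or log2(FPKM + 0.1) 10 and 11 members were lower among the 22 tested, and 3 were higher under both; the 2-fold rule gave 9 lower and 0 higher. Members higher numbered 0 with DESeq2, 3 with library totals only, 2 with at least 50 counts on average and 2 with log2(FPKM + 1) unfiltered. The floor of 10 counts left 39 members detected in at least 1 library instead of 44.

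Leaving out 1 library gave 0 to 3 members higher (3 when Ezh2 f/f replicate 1 was left out, 0 when it was Ezh2 cKO replicate 1) and 14 to 17 lower. For the motile cilium genes it gave 4 to 9 higher (4 without Ezh2 f/f replicate 1 or Ezh2 cKO replicate 1) and 3 to 4 lower (3 without Ezh2 cKO replicate 2), for the insulin to AKT genes 1 to 3 higher (1 without Ezh2 cKO replicate 2) and 2 to 5 lower (2 without Ezh2 cKO replicate 1), for the mitotic genes 10 to 11 lower, for the FOXO targets 4 to 5 higher and 4 to 6 lower, and for the GATA partners 3 to 5 lower. Where 1 library of a group is left, it is assumed to vary like the other group. Tbx4 reversed to 1.54 (adjusted p = 0.0331) without Ezh2 f/f replicate 1, and was -0.79 without replicate 2.

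The motile cilium genes were 4 higher and 3 lower with DESeq2 and with at least 50 counts on average, 3 higher and 2 lower with log2(FPKM + 0.1), 2 lower with log2(FPKM + 1) and 3 lower unfiltered. The insulin to AKT genes were 2 lower with log2(FPKM + 1), and 1 higher and 1 lower unfiltered, where 3 FOXO targets were lower. The cause of these differences was not tested.

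Labels give both groups the replicate numbers 1 and 2, and nothing says that a number marks a shared litter or batch. Same-numbered libraries deviated with a correlation of 0.13, from 2 pairs only. With the replicate block 1 member was higher and 19 lower, as without it.

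At between 16273308 and 17522152 counts per library, members without about 10 counts in at least 2 libraries were not tested. The floor of 3 counts for detection was chosen here and not measured.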
